A study of Homo sapiens with 24 samples.

Results

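Transcripts of myeloid granule genes were followed in 4 human leukaemia and lymphoma cell lines of myeloid type, treated with the kinase inhibitor R406 or its vehicle. The 9 genes listed were MPO, PRTN3, ELANE, CTSG, AZU1, MS4A3, LYZ, RNASE2 and PRG2. A gene was measured where at least 1 probe set carried its symbol alone, and its brightest probe set by the mean of all arrays represented it. This gave 8 of the 9 genes, out of 12165 genes measured in all. LYZ was represented by a probe set with several symbols and was not analysed here.

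There were 24 arrays in 8 groups of 3. Cells of the lines HL-60, KG-1, MOLM-14 and U937 received DMSO or 4 µM R406 for 24 h, in replicates numbered 1 to 3. The dose is that of the treatment protocol, whereas the design text of the series has mM in place of µM. R406 is the active form of the drug fostamatinib and inhibits the kinase SYK, along with other kinases that include FLT3. The study concerned integrin beta 3 signalling in leukaemia. MOLM-14 is a monocytic leukaemia line with an activated FLT3, U937 a monocytic line from a histiocytic lymphoma, KG-1 an early myeloid line and HL-60 one of promyelocytes. Each group is therefore 1 established line at 1 dose and 1 time. The labels do not say that the replicates were separate cultures, so p-values measure the spread between these arrays, which may be technical.

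Values are linear probe set intensities. Array medians lay between 19.1 and 21.4, and no value was at 0. The background was read from 25 genes of other tissues (liver, pancreas, muscle and the like), whose 90th percentile was 19.0 to 32.5 on the different arrays. A gene was counted as above background where it exceeded that percentile on all 3 arrays of a group. The number of arrays limits the precision. LAPTM5 and PTPRC, defining markers of blood cells, were present in all lines. Erythroid markers (8 measured) summed to 95.7 to 136 on the arrays and B cell markers (8 measured) to 65.5 to 153. T and NK cell markers (10 measured) summed to 190 to 1059, most of it NKG7, a granule membrane protein of cytotoxic cells (811 ± 12.6 in U937 with DMSO). LCK, a T cell kinase, rose in KG-1 from 31.6 ± 6.34 to 114 ± 25.7. KG-1 R406 replicate 2 stood furthest from its group, with a root mean square deviation of 0.180 on the log2 scale. Granule gene changes in KG-1 that moved by over 0.1 on the log2 scale without it are also given without it. For all other genes, KG-1 changes are given only with this array included, and how far they depend on it was not tested.

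Primary, or azurophil, granules are the first granules that a neutrophil precursor makes. Their contents are transcribed at the promyelocyte stage and shut off as the cell matures, so their RNA marks a narrow window of myeloid development. ELANE, PRTN3 and CTSG encode the serine proteases neutrophil elastase, proteinase 3 and cathepsin G. AZU1 encodes azurocidin, a relative of these proteases that has lost catalytic activity, and MPO encodes myeloperoxidase, which makes hypochlorous acid. RNASE2 (eosinophil-derived neurotoxin, a ribonuclease) and PRG2 (eosinophil major basic protein) belong to eosinophil granules. MS4A3 is a membrane protein of granulocyte and monocyte progenitors rather than a granule protein. The arrays measured RNA, not the proteins, and in such bulk samples fewer cells of a type and less RNA per cell cannot be told apart.

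The proximal promoters of several of these genes are known to be bound by PU.1, MYB, C/EBP and RUNX factors. RefSeq (GRCh38.p14) gave a promoter for 5 of the 8 measured genes. Shown are the 250 bases before the start of the 3 serine protease family genes among them, whose RNA is the subject of most results below. PRTN3 lies at chr19:840749-840998 on the plus strand, CTSG at chr14:24576251-24576500 on the minus strand and AZU1 at chr19:827587-827836 on the plus strand. Capitals mark GAGGAA, letters of a PU.1 site, and CAACNG, letters of a MYB site, on either strand.
PRTN3: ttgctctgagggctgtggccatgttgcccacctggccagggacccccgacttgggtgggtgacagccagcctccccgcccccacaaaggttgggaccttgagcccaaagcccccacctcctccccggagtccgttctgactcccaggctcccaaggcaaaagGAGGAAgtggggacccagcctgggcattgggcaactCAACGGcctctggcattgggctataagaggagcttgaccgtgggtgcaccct
CTSG: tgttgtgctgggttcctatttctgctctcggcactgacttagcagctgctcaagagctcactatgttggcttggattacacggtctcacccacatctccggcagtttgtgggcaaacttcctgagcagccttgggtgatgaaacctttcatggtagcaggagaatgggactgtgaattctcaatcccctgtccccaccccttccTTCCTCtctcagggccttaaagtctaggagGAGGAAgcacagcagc
AZU1: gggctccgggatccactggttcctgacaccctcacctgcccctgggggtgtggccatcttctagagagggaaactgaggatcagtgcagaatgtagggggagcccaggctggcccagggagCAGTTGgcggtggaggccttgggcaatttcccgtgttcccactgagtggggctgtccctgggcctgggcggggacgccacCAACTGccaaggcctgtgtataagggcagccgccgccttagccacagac
In PRTN3, GAGGAA began 88 bases and CAACNG 52 bases before the start. CTSG held GAGGAA at 46 bases (opposite strand) and at 16 bases. AZU1 held CAACNG at 129 bases (opposite strand) and at 49 bases. No marked motif overlapped another. Over the 5 promoters, GAGGAA was found in 2 and CAACNG in 3, the C/EBP letters TTGCNNAA in 4 and the RUNX letters TGNGGT in 0. Among all 35116 RefSeq promoters of the same length the shares were 23.6%, 27%, 9.05% and 37.7%. A match is a string of letters and not evidence of binding.

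The DMSO levels of all 8 genes differed between the lines, by at least 5.28 on the log2 scale between the measured values of the lowest and the highest line. Where the lowest line was not above background, the measured range depends on the background. In the moderated F test over the 4 DMSO groups (limma, Benjamini-Hochberg over all genes), 8 of 8 passed at an adjusted p under 0.05, against 68.1% of all genes. MPO, MS4A3, PRG2 and PRTN3 were highest in HL-60, AZU1 and RNASE2 in MOLM-14, and CTSG in U937. KG-1 was lowest for ELANE, PRTN3, CTSG, AZU1, MS4A3 and RNASE2. Below, a gene is said to rise or fall where it passed at that threshold. Levels are compared between lines for the same probe set. Where different probe sets are plotted together or summed, their brightness differs for reasons other than RNA amount.

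**Figure D1:**
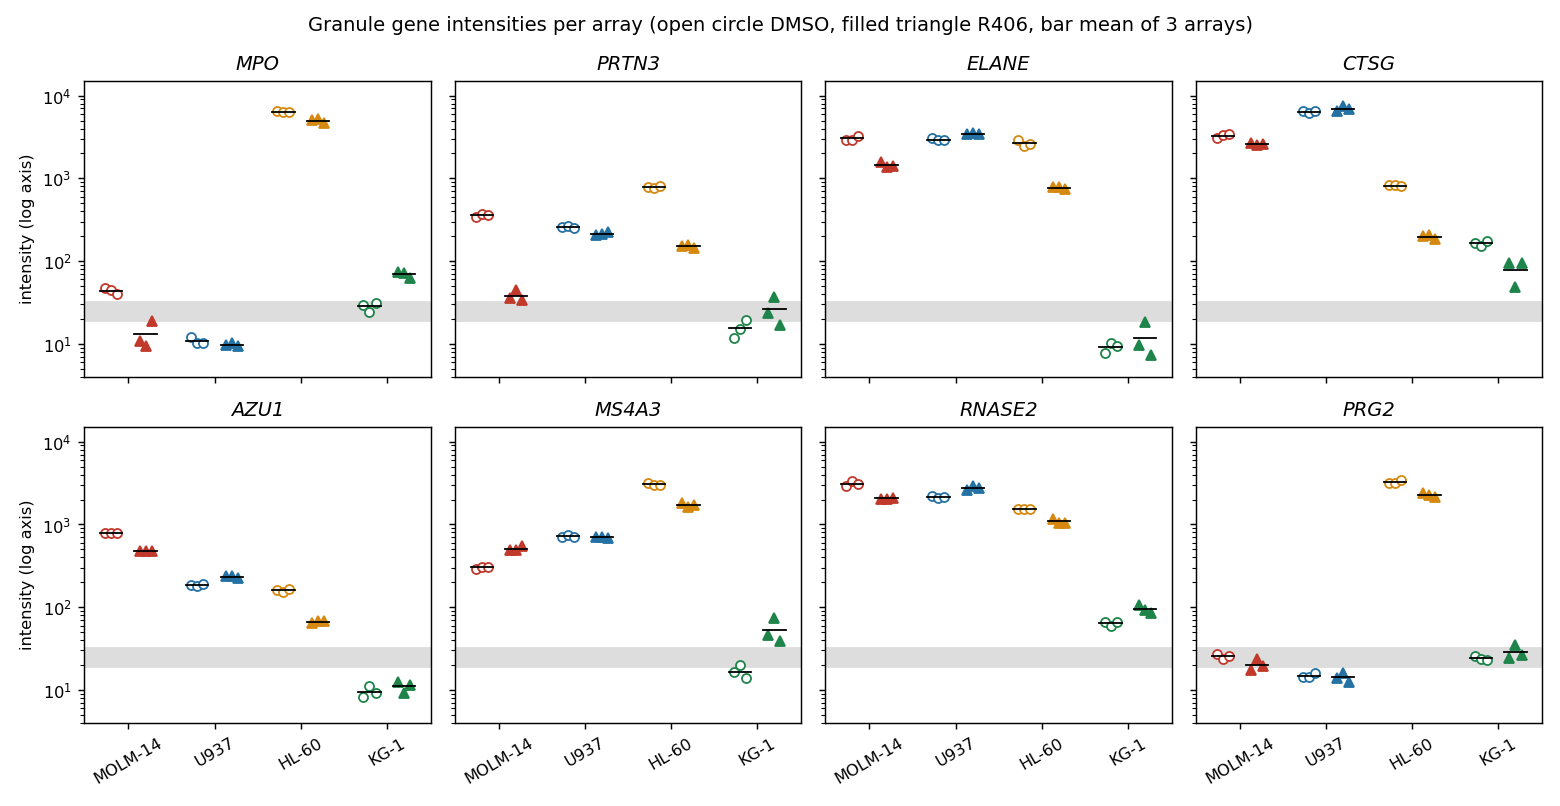
Intensity (vertical log axis) of each of the 8 granule genes on every array, with open circles for DMSO, filled triangles for R406 and bars for the mean of 3 arrays. The grey band spans 19.0 to 32.5, the 90th percentile of 25 genes of other tissues on the different arrays. KG-1 lies in or below the band for MPO, PRTN3, ELANE, AZU1, MS4A3 and PRG2 with DMSO.

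MPO had a mean DMSO intensity of 6416 ± 114 (SD, n = 3) in HL-60, against 44.0 ± 3.68 in MOLM-14, 28.5 ± 3.63 in KG-1 and 10.9 ± 1.03 in U937. It was above background in HL-60, MOLM-14 and KG-1 and on no array of U937. All 6 differences between pairs of lines passed the test. PRG2 had a similar order, with 3225.3 ± 156 in HL-60 and 25.8 ± 1.82, 24.1 ± 1.55 and 14.9 ± 1.12 in MOLM-14, KG-1 and U937. MOLM-14 and KG-1 did not differ for PRG2 beyond their spread (log2 difference 0.094, SE 0.11). Both genes therefore had a strong signal in HL-60 and a weak signal in the other lines.

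ELANE was bright in 3 lines, with 3034 ± 172 in MOLM-14, 2944 ± 95.2 in U937 and 2642 ± 227 in HL-60. These 3 levels did not pass the test of a difference in any pair (log2 differences 0.042 to 0.20, SE 0.18). KG-1 was at 9.18 ± 1.33, below background on all 3 arrays. PRTN3 ran from 785.1 ± 26.6 in HL-60 through 358 ± 14.9 in MOLM-14 and 258 ± 6.40 in U937 to 15.4 ± 3.86 in KG-1, and all 6 pairs differed. CTSG was highest in U937 (6414 ± 163), followed by MOLM-14 (3285 ± 154), HL-60 (817 ± 15.0) and KG-1 (164 ± 11.5), again with all 6 pairs different. In KG-1 with DMSO it was the 1 protease gene above background.

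AZU1 had 792 ± 5.53 in MOLM-14, 186 ± 5.15 in U937, 160.1 ± 7.29 in HL-60 and 9.57 ± 1.60 in KG-1. U937 and HL-60 did not pass the test of a difference (log2 difference 0.21, SE 0.092, adjusted p = 0.0602). MS4A3 was ordered as HL-60 (3067 ± 129.6), U937 (717 ± 29.4), MOLM-14 (302 ± 10.2) and KG-1 (16.7 ± 2.89). RNASE2 was at 3113.5 ± 196 in MOLM-14, 2145.5 ± 54.2 in U937, 1545 ± 2.60 in HL-60 and 63.8 ± 4.06 in KG-1. Over the 8 genes, 43 of 48 differences between pairs of lines passed. By pair of lines this was 7 of 8 genes for MOLM-14 against U937, HL-60 or KG-1, 6 for U937 against HL-60, and 8 for each of the pairs U937 with KG-1 and HL-60 with KG-1. The shares among all genes were 47%, 46%, 51.2%, 48.2%, 50.9% and 48.6% in that order.

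R406 moved the granule genes in different directions in the 4 lines. In HL-60, 7 of 8 fell and 0 rose, where 7.98% of all genes were called lower and 7.2% higher. In MOLM-14, 6 fell and 1 rose, against 25% and 31.1% of all genes. In U937, 0 fell and 2 rose (5.43% and 6.1% of all genes), and in KG-1 1 fell and 4 rose (20.9% and 23.5%). The median log2 change of the 8 genes was -1.05 in HL-60, -0.66 in MOLM-14, 0.038 in U937 and 0.40 in KG-1. Over all genes the medians were -0.0029, 0.068, 0.0029 and 0.020. In KG-1, PRTN3, ELANE, AZU1 and MS4A3 were not above background with DMSO and could hardly read lower, and PRTN3 and MS4A3 were among those that rose. MPO and PRG2 in U937 had the same limit. Counted by arrays that do not overlap, 8 genes had all R406 arrays below all DMSO arrays in HL-60 (16.9% of all genes), 7 in MOLM-14 (26.1%), 2 in U937 (15.9%) and 1 in KG-1 (23.2%). The reverse held for 0, 1, 4 and 3 genes (15.9%, 31.6%, 18.2% and 26.5% of all genes).

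**Figure D2:**
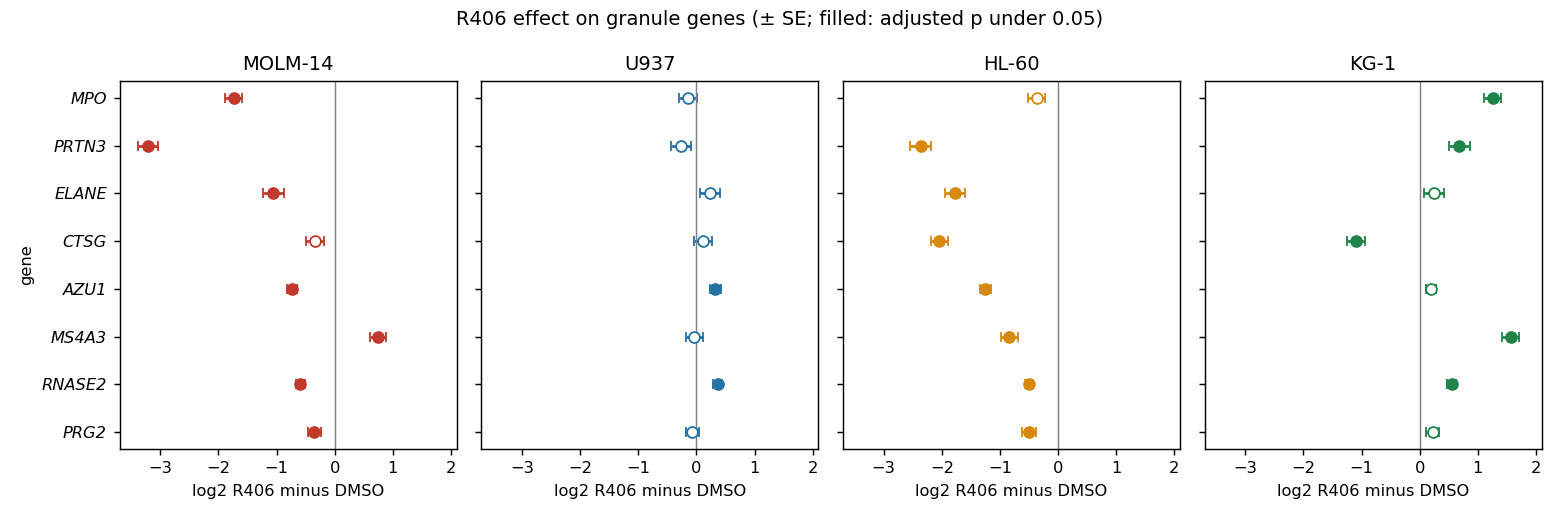
Log2 change with R406 (horizontal axis, R406 minus DMSO) for each granule gene in each line, with bars of ± 1 SE; filled points passed at an adjusted p under 0.05. HL-60 has 7 filled points left of 0 and KG-1 has 4 right of 0.

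PRTN3, proteinase 3, showed the lowest changes of the set. In HL-60 its intensities were 797, 755 and 804 with DMSO and 154, 155 and 146 with R406. All R406 arrays were far below all DMSO arrays. The log2 change of -2.36 (SE 0.18, adjusted p = 2.65e-09, limma) left 19.3% of the DMSO level and was the lowest of all 12165 genes in that line. In MOLM-14 the intensities were 343, 372 and 359 with DMSO and 35.6, 44.3 and 34.1 with R406. The groups were again apart, and the R406 arrays were just above the background band. PRTN3 fell by 3.21 on the log2 scale there (SE 0.18, adjusted p = 3.37e-13), to 10.6% of the DMSO level, and ranked 41 from the lowest.

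In U937, PRTN3 read 259.8, 263 and 250.7 with DMSO and 209, 214 and 222 with R406. The arrays did not overlap, yet the change of -0.26 (SE 0.18) did not pass (adjusted p = 0.439). A fit on the 6 U937 arrays alone gave the same change an adjusted p of 0.0157. In KG-1 the readings were 11.7, 15.1 and 19.4 with DMSO and 23.8, 37.3 and 17.1 with R406, which overlap and lie around background. PRTN3 rose there by 0.68 (SE 0.18, adjusted p = 0.00249), by 0.40 without KG-1 R406 replicate 2 (adjusted p = 0.0299), and did not pass in a fit on the KG-1 arrays alone (adjusted p = 0.0666).

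ELANE, neutrophil elastase, fell in HL-60 and MOLM-14, and these lines and U937 were those whose DMSO levels did not pass the test of a difference. In HL-60 it read 2894, 2453 and 2580.4 with DMSO and 793, 779 and 735 with R406. In MOLM-14 it read 2924, 2945 and 3233 with DMSO and 1582, 1385 and 1419 with R406. In U937 it read 3053, 2900.1 and 2878 with DMSO and 3462, 3547 and 3399 with R406. All R406 arrays were below the DMSO arrays in HL-60 and MOLM-14 and above them in U937. ELANE fell by 1.78 in HL-60 (SE 0.18, adjusted p = 2.03e-07, to 29.1% of DMSO, rank 6 from the lowest). It fell by 1.05 in MOLM-14 (SE 0.18, adjusted p = 1.86e-05, to 48.2% of DMSO). The U937 change of 0.24 (SE 0.18) did not pass (adjusted p = 0.498), but did in a fit on the U937 arrays alone (adjusted p = 0.0229). The effect in U937 exceeded that in HL-60 by 2.01 (adjusted p = 8.73e-06), and that in MOLM-14 exceeded that in HL-60 by 0.72 (adjusted p = 0.0208). KG-1 was at 7.73, 10.3 and 9.47 with DMSO and 9.83, 18.3 and 7.31 with R406, all below background. Its change there was 0.25 and did not pass, and it was -0.094 without KG-1 R406 replicate 2, the array at 18.3.

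CTSG, cathepsin G, fell in HL-60 and KG-1. In HL-60 it read 822, 829 and 800.4 with DMSO and 199, 208 and 187 with R406. The groups did not overlap, and CTSG fell by 2.04 (SE 0.15, adjusted p = 2.85e-09), to 24.2% of DMSO and rank 3 from the lowest. In KG-1 it read 165, 152 and 175 with DMSO and 95.1, 48.2 and 94.3 with R406, and it was the 1 granule gene that fell in this line. The fall was 1.10 (SE 0.15, adjusted p = 2.15e-06) and 0.78 without KG-1 R406 replicate 2, the array at 48.2 (adjusted p = 9.42e-09).

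In MOLM-14, CTSG read 3111, 3338 and 3405 with DMSO and 2666, 2509 and 2623 with R406. The arrays did not overlap, and the change of -0.34 (SE 0.15) left 79.1% of the DMSO level but did not pass (adjusted p = 0.0658). It did pass in a fit on the MOLM-14 arrays alone (adjusted p = 0.00560) and without KG-1 R406 replicate 2 (adjusted p = 9.35e-05). U937, the line with the highest CTSG, read 6471, 6229 and 6540 with DMSO and 6577, 7389 and 6833 with R406. All its R406 arrays were above its DMSO arrays, with a change of 0.11 that did not pass (adjusted p = 0.774). The effect in HL-60 was lower than that in MOLM-14 by 1.70 (adjusted p = 6.67e-07) and lower than that in U937 by 2.15 (adjusted p = 5.12e-07).

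AZU1, azurocidin, is read by a probe set that can also bind related transcripts. In HL-60 it read 161, 152 and 167 with DMSO and 64.3, 68.0 and 67.6 with R406. In MOLM-14 it read 798, 791 and 787 with DMSO and 481, 475 and 472 with R406. Groups were apart in both lines, and the spread within each was small. AZU1 fell by 1.25 in HL-60 (SE 0.092, adjusted p = 2.27e-09, to 41.6% of DMSO) and by 0.73 in MOLM-14 (SE 0.092, adjusted p = 3.41e-07, to 60.1%). In U937, which had nearly the DMSO level of HL-60, AZU1 read 184, 182 and 192 with DMSO and 239, 239 and 223 with R406. It rose by 0.33 (SE 0.092, adjusted p = 0.0222). This call was lost when U937 DMSO replicate 1 or 2 or U937 R406 replicate 1 or 2 was left out, with changes of 0.31 to 0.32 and adjusted p = 0.0697 to 0.0781. The difference between the U937 and HL-60 effects was 1.58 (adjusted p = 2.56e-08). In KG-1 AZU1 stayed below background, with 8.17, 11.3 and 9.23 against 12.6, 9.23 and 11.4. The change of 0.19 there did not pass, and without KG-1 R406 replicate 2 it was 0.31 and did (adjusted p = 0.00613).

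MPO, myeloperoxidase, fell in MOLM-14 and rose in KG-1, both lines in which it was dim. In MOLM-14 it read 47.2, 44.9 and 40.0 with DMSO and 10.8, 9.40 and 18.8 with R406. The R406 arrays were all below the DMSO arrays and below background, so the change of -1.74 (SE 0.15, adjusted p = 8.68e-10) ends at background. In KG-1 it read 29.5, 24.5 and 31.6 with DMSO and 73.4, 71.9 and 62.4 with R406. The groups did not overlap, and MPO rose by 1.25 (SE 0.15, adjusted p = 2.74e-07), to 243% of DMSO.

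In HL-60, where MPO was 2 orders of magnitude brighter, it read 6547, 6341 and 6360 with DMSO and 5080, 5150 and 4713 with R406. Every R406 array was below every DMSO array, and 77.6% of the level remained. The change of -0.37 (SE 0.15) did not pass over all arrays (adjusted p = 0.117). It did pass in a fit on the HL-60 arrays alone (adjusted p = 0.00610) and without MOLM-14 R406 replicate 3 (adjusted p = 0.00746). In U937 MPO read 12.1, 10.3 and 10.4 with DMSO and 9.64, 10.1 and 9.41 with R406, at background throughout. The other MPO probe set gave -1.43 in MOLM-14, 0.23 in U937, -0.30 in HL-60 and 1.02 in KG-1. It differed in sign from the first in U937, where neither passed.

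RNASE2, the eosinophil-derived neurotoxin, changed in all 4 lines by modest amounts. In MOLM-14 it read 2930, 3319 and 3091 with DMSO and 2035, 2044 and 2112 with R406. In HL-60 it read 1542, 1547 and 1546 with DMSO and 1175, 1054 and 1052 with R406. Both lines had R406 arrays below all DMSO arrays, and RNASE2 fell by 0.59 (SE 0.076, adjusted p = 4.97e-07) and 0.50 (adjusted p = 6.21e-05). In U937 it read 2184, 2084 and 2169 with DMSO and 2644, 2876 and 2780.4 with R406. In KG-1 it read 65.9, 59.1 and 66.4 with DMSO and 106, 92.2 and 84.2 with R406. Here the R406 arrays were above all DMSO arrays, and RNASE2 rose by 0.37 (SE 0.076, adjusted p = 0.00243) and 0.55 (adjusted p = 2.12e-06).

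PRG2, eosinophil major basic protein, is also read by a probe set that can bind related transcripts. In HL-60 it read 3132, 3139 and 3405 with DMSO and 2419, 2272 and 2154 with R406. The groups were apart, and PRG2 fell by 0.50 (SE 0.11, adjusted p = 0.00372), to 70.8% of DMSO. In MOLM-14 it read 27.4, 23.8 and 26.0 with DMSO and 17.5, 23.5 and 19.4 with R406, near background. It fell by 0.35 there (SE 0.11, adjusted p = 0.0123). That call was lost without MOLM-14 DMSO replicate 1 (adjusted p = 0.0534) or MOLM-14 R406 replicate 1 (adjusted p = 0.0837). U937 (-0.069) and KG-1 (0.22) did not pass. Without KG-1 R406 replicate 2 the KG-1 value was 0.075.

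MS4A3, the progenitor membrane protein, was the 1 granule-list gene that rose in MOLM-14. It read 290.3, 308 and 308 there with DMSO and 487, 494 and 543 with R406. The groups were apart, and MS4A3 rose by 0.75 (SE 0.14, adjusted p = 1.16e-04). In HL-60 it read 3209, 2956 and 3035 with DMSO and 1796, 1623 and 1718 with R406. It fell there by 0.84 (SE 0.14, adjusted p = 2.56e-04), to 55.8% of DMSO, without overlap. In KG-1 it read 16.4, 19.8 and 14.0 with DMSO and 45.8, 74.1 and 38.9 with R406, so that it went from around background to above it on all 3 arrays. The rise was 1.57 (SE 0.14, adjusted p = 5.22e-09), or 1.30 without KG-1 R406 replicate 2 (adjusted p = 7.44e-10). U937 read 696, 750.5 and 705 against 703, 714 and 682, a change of -0.035.

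The R406 effect itself differed between the lines for all 8 genes. The moderated F test of the difference passed for 8 of 8, against 54.8% of all genes. Between the lowest and the highest line the effects of PRTN3 lay 3.89 apart on the log2 scale and those of MPO 2.99. PRTN3 in KG-1 and MPO in MOLM-14 with R406 were not above background on all arrays, so these sizes are approximate and are not ranked. Of 48 differences between pairs of lines, 38 passed. By pair this was 8 of 8 genes for MOLM-14 against KG-1 (33.4% of all genes) and for HL-60 against KG-1 (35.6%). It was 6 of 8 for MOLM-14 against U937 (43.8%), for MOLM-14 against HL-60 (45.2%) and for U937 against HL-60 (7.23%), and 4 of 8 for U937 against KG-1 (33.3%). With DMSO, PRTN3, ELANE, AZU1 and MS4A3 in KG-1 and MPO and PRG2 in U937 were not above background. A fall could hardly be read there, so for these the test cannot separate a different response from a limit of the reading. U937 and HL-60 thus differed in 6 granule genes, namely PRTN3, ELANE, CTSG, AZU1, MS4A3 and RNASE2, each with the higher effect in U937, by 0.81 to 2.15.

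MOLM-14 and HL-60, the lines in which most granule genes fell, differed from each other by gene. The change in MOLM-14 was the lower one for MPO (difference -1.37, adjusted p = 1.06e-05) and PRTN3 (-0.85, adjusted p = 0.00716). MPO had not passed in HL-60 and ended at background in MOLM-14, so the size of its difference is approximate. The change in HL-60 was the lower one for ELANE (0.72), AZU1 (0.52, adjusted p = 0.00209) and CTSG (1.70), which had not passed in MOLM-14. MS4A3 moved in opposite directions (1.59, adjusted p = 8.95e-07). RNASE2 and PRG2 did not differ between these lines beyond the error (-0.091 and 0.15). As an equal-weight mean of the 4 lines, 6 genes were called lower and 1 higher (23.9% and 29.1% of all genes). PRTN3 had the lowest mean, -1.29 (adjusted p = 1.88e-11), and MS4A3 was the gene with a higher mean, 0.36 (adjusted p = 1.87e-04). RNASE2, which fell in 2 lines and rose in 2, had a mean of -0.044 that did not pass (adjusted p = 0.362).

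**Figure D3:**
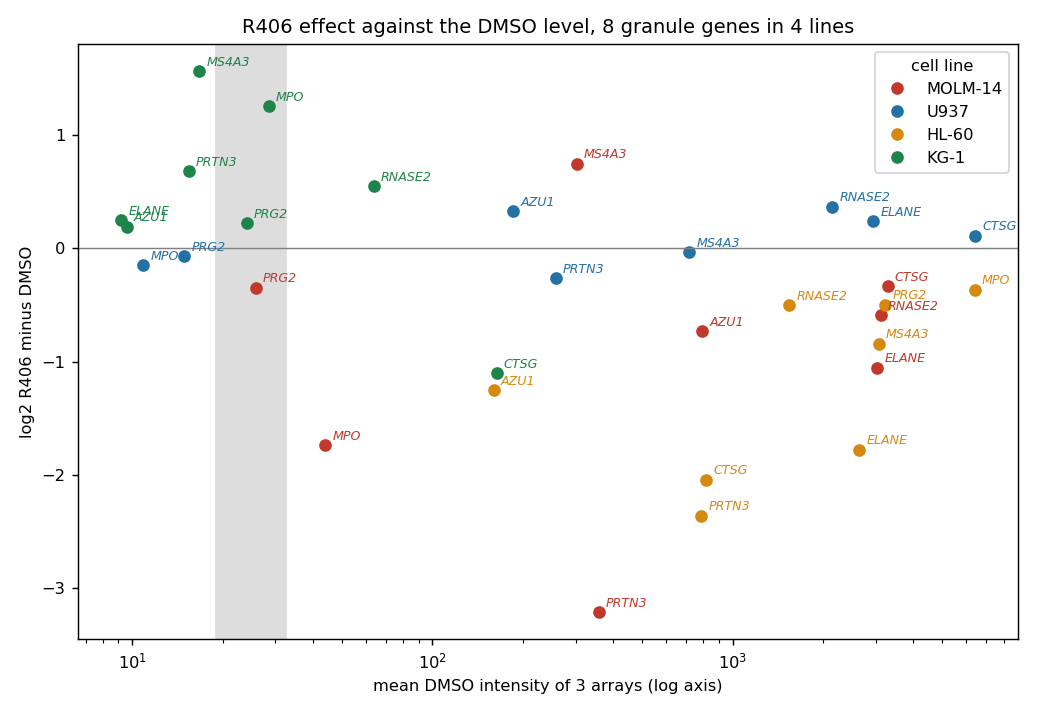
Log2 change with R406 (vertical axis) against the mean DMSO intensity of 3 arrays (horizontal log axis) for the 8 granule genes, 1 point for a gene in a line, coloured by line. The grey band spans the background percentile of 19.0 to 32.5. ELANE in HL-60 (-1.78) and U937 (0.24) shows changes far apart at DMSO intensities of 2642 and 2944.

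The changes were set against the DMSO levels. Of the 32 combinations of gene and line, 26 had a DMSO level above background. Among these, 14 were called lower, 5 higher and 7 neither. Among the 6 at or below background, 0 were called lower, 2 higher and 4 neither, and a gene at background can hardly read lower. By line, 5.43% to 25% of all genes were called lower and 6.1% to 31.1% higher. Matching shares of all genes above or below background were not computed, so these counts are a description only. Across the 8 genes, the correlation of change with log2 DMSO level was 0.11 in MOLM-14, 0.54 in U937, 0.49 in HL-60 and -0.52 in KG-1 (Pearson), with Spearman values of 0.12, 0.50, 0.76 and -0.095. Over all genes Pearson values were -0.25, -0.045, -0.039 and -0.15. These are descriptions only, since they set the levels of 8 different probe sets side by side, probe sets differ in brightness, and the DMSO arrays enter both measures. In KG-1, 4 of the 8 genes were not above background with DMSO. For ELANE, the DMSO levels of U937 and HL-60 differed by 0.16 on the log2 scale (not past the test) and the R406 effects by 2.01.

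AZU1, PRTN3 and ELANE are direct neighbours on chromosome 19, in this order, followed by CFD, which encodes the serine protease complement factor D. CFD rose by 1.24 in MOLM-14, 0.75 in U937 and 1.07 in KG-1 and fell by 0.72 in HL-60. In KG-1 its mean with DMSO was 19.1, near background, so the size of that rise is approximate. CFD thus passed in the opposite direction to all 3 of these granule genes in MOLM-14 and in the same direction in HL-60. PTBP1, a splicing factor 2 genes before AZU1, fell by 0.56 in MOLM-14 and 0.48 in KG-1. MED16, a Mediator subunit beyond CFD, passed in no line. PLPPR3, just before AZU1, fell by 0.76 in HL-60 and passed in no other line. In a wider list of genes near the granule genes, which does not hold PLPPR3 and of which 24 of 28 were measured, 6 rose and 7 fell in MOLM-14, 4 and 1 in U937, 0 and 4 in HL-60, and 4 and 7 in KG-1. Among all genes, 31.1%, 6.1%, 7.2% and 23.5% were called higher in these lines, in that order. The shares called lower were 25%, 5.43%, 7.98% and 20.9%. Beyond MS4A3 and its neighbour MS4A2, which was not measured, MS4A6A changed by 0.88, 0.46, -1.54 and 1.10 in MOLM-14, U937, HL-60 and then KG-1. Each of these passed, and HL-60 was again the line with the lower value.

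**Figure D4:**
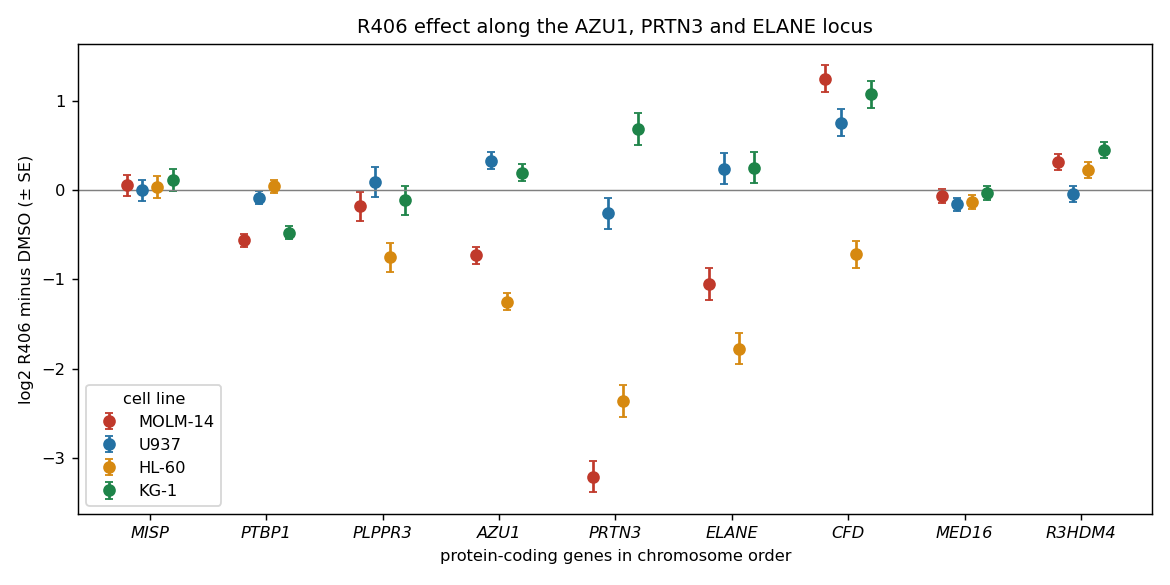
Log2 change with R406 (vertical axis, ± 1 SE) for 9 neighbouring protein-coding genes in chromosome order, coloured by line. The lowest points are PRTN3 in MOLM-14 and HL-60, and CFD is above 0 in 3 lines and below 0 in HL-60.

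The partners list held processing, packing and storage genes, together with HLA-DMB, the oxidase genes CYBA and CYBB, and the haem enzyme genes HMOX2, FECH and CPOX. Of the 23 genes listed, 21 were measured. In MOLM-14 10 rose and 8 fell, in U937 6 and 2, in HL-60 3 and 5, and in KG-1 11 and 4, with medians of -0.042, 0.12, -0.0057 and 0.21. The shares of all genes in these lines were 31.1%, 6.1%, 7.2% and 23.5% higher and 25%, 5.43%, 7.98% and 20.9% lower. They apply to the counts of the further lists below as well. SERPINB1, the inhibitor of elastase, cathepsin G and proteinase 3, rose by 1.07 in MOLM-14 and 1.18 in KG-1 and fell by 0.28 in U937. CD63, a membrane protein of azurophil granules and lysosomes, rose by 1.16 in MOLM-14, 0.51 in U937 and 0.68 in KG-1. FUCA1, a lysosomal fucosidase, rose by 2.20 in MOLM-14, 1.04 in U937 and 0.66 in KG-1. HMOX2, a haem oxygenase, fell by 1.78 in MOLM-14 and 1.29 in KG-1. In HL-60 none of these 4 passed.

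Of 11 measured genes of other azurophil and eosinophil granule contents (13 listed), 3 rose and 0 fell in MOLM-14, 2 and 0 in U937, 2 and 2 in HL-60, and 3 and 2 in KG-1. The medians were 0.18, 0.017, 0.18 and 0.11. CTSD, the lysosomal aspartic protease cathepsin D, rose in all 4 lines, by 1.49, 0.40, 0.65 and 0.25 in MOLM-14, U937, HL-60 and then KG-1. CTSB, cathepsin B, also rose in all 4, by 1.12, 0.41, 0.18 and 0.58. DEFA4, a defensin of azurophil granules, changed by -1.19 in HL-60, from 54.9 ± 8.01 to 23.5 ± 4.47, and was near background elsewhere. Of 20 genes of later, secondary and tertiary granules, 5 rose and 0 fell in MOLM-14, 3 and 2 in U937, 4 and 3 in HL-60, and 2 and 2 in KG-1. FPR1, the formyl peptide receptor, rose in all 4 lines and by 1.73 in HL-60, from 242 ± 46.2 to 799.5 ± 8.57. In MOLM-14 and KG-1 its means stayed between 8.52 and 13.0, below background. MMP9, gelatinase B, rose in HL-60 by 1.75, from 15.4 ± 3.91 to 54.3 ± 15.1. CHI3L1 rose by 0.61 in MOLM-14 and 1.30 in U937. In HL-60, where it was brightest (1261 ± 29.1 with DMSO), its change of 0.098 did not pass. TCN1 fell by 1.70 in KG-1, from 151 ± 36.1 to 45.2 ± 5.61, and passed in no other line.

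Markers of other cell stages are given beside these changes. Of 17 measured monocyte markers, 10 rose and 2 fell in HL-60, and their summed intensity went from 11436 to 12475 with DMSO to 17277 to 18417 with R406. In MOLM-14, 9 rose and 3 fell (sums of 2220.4 to 2353 and 4899 to 5148), in U937 9 rose and 0 fell (3448 to 3577 and 5029 to 5130.1), and in KG-1 5 rose and 3 fell (1010.1 to 1050.3 and 1024 to 1062). The shares of all genes called in each line stand with the granule gene counts above, and in KG-1 they were 23.5% higher and 20.9% lower. No marker of the list was at 0 on any array. Of 11 early progenitor markers, 7 rose and 0 fell in KG-1, with sums from 5705 to 6144 and from 7635 to 9072. In MOLM-14, 3 rose and 2 fell, and the sums went from 1356 to 1423 with DMSO to 3033 to 3175 with R406. Most of that rise was FLT3, which went from 914 ± 12.3 to 2263 ± 64.9. In U937 1 rose and 1 fell, and in HL-60 1 rose and 2 fell. The median changes of these markers were -0.024, -0.091, 0.00028 and 0.40 in MOLM-14, U937, HL-60 and then KG-1. The genes of other tissues that served as background rose in 9 of 25 cases in MOLM-14, with sums from 242 to 259.6 and from 420.3 to 462, and in 2 of 25 in KG-1. Most of the sum's rise in MOLM-14 was PRL, the hormone prolactin, which went from 8.84 ± 0.328 to 166 ± 10.4, and the median change of the list was 0.13. The 3' to 5' log2 ratio of the ACTB control probe sets changed by 0.34 in MOLM-14, -0.039 in U937, -0.13 in HL-60 and 0.12 in KG-1 (2-sided exact permutation p = 0.1, 0.6, 0.1 and 0.1, where 0.1 is the smallest p that 3 against 3 arrays allow). The GAPDH ratio changed by 0.078, -0.0058, -0.011 and 0.10 (exact permutation p = 0.1, 1, 0.9 and 0.1). The part of these values in the granule gene changes was not tested.

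Of 22 measured regulators of granule genes (24 listed), 10 rose and 8 fell in MOLM-14, 1 and 3 in U937, 7 and 4 in HL-60, and 7 and 6 in KG-1. The medians were 0.17, -0.042, 0.032 and 0.0062. MYC, which drives growth and holds back differentiation, fell in all 4 lines, with changes of -3.38, -0.80, -0.62 and -2.11 in MOLM-14, U937, HL-60 and then KG-1. IRF8, a factor of monocyte development, fell by 0.54 in MOLM-14 and 1.83 in HL-60. EGR1, an early response factor, fell by 3.45 in MOLM-14 and 1.42 in U937 and rose by 3.69 in HL-60. STAT3 rose in all 4 lines, by 0.97, 0.36, 0.51 and 0.22.

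MYB, CEBPA and SPI1 are named for their known role at these promoters. MYB, whose letters stand in the PRTN3 and AZU1 promoters above, went from 1749 ± 32.0 to 1315 ± 17.9 in HL-60 (-0.41, adjusted p = 4.18e-04) and from 1373 ± 68.7 to 2253 ± 262 in KG-1 (0.71, adjusted p = 3.84e-08). In MOLM-14 the MYB change was -0.21 (adjusted p = 0.0210) and in U937 -0.13 (adjusted p = 0.352). In KG-1, MPO, PRTN3, MS4A3 and RNASE2 rose, CTSG fell, and ELANE, AZU1 and PRG2 were not called. Whether MYB bears on the granule genes was not tested. CEBPA changed by 0.47 in MOLM-14 (adjusted p = 2.35e-05), 0.12 in U937, -0.15 in HL-60 and -0.40 in KG-1 (adjusted p = 2.40e-04). SPI1, which encodes PU.1, had mean intensities of only 15.1 to 36.4 in the 8 groups, so its probe set was near background. RUNX1 changed by 0.29, 0.096, -0.026 and 0.31 in MOLM-14, U937, HL-60 and then KG-1, and passed in MOLM-14 and KG-1. CBFB changed by -0.38, 0.064, 0.29 and -0.20 and did not pass in U937. CEBPB changed by 0.30, -0.39, 0.69 and -0.29 and passed in each line. CEBPE passed only in HL-60 (0.48), and CEBPG only in MOLM-14 (-0.38) and KG-1 (-1.02). CEBPD passed in no line.

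The genes most like the mean profile of MPO, PRTN3, ELANE, CTSG and AZU1 were found over the 8 group means. LONRF3 had the highest Pearson correlation (0.99), followed by P2RY6, PTCD1, ARMCX5, SARS1, TTC1, MT1E and SFMBT1 (0.96 each). Over the 4 R406 effects, among 2237 genes called lower in at least 2 lines, the most alike was GRB10 (0.995), then NUCB2, BCL2, HEMK1, PRORP, ZNF74, PIGF and DZANK1. BCL2, the survival gene, changed by -0.76, -0.48, -0.89 and -0.42 in MOLM-14, U937, HL-60 and then KG-1, and NUCB2 by -0.34, 0.17, -0.45 and 0.28. With 4 or 8 points such likeness is a description of these groups.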

How the data were processed

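RNA from the 24 samples was extracted with Qiagen RNeasy Mini columns and read on single-colour Affymetrix human U133 arrays (set A, high-throughput format), per the labels' protocols. The deposited tables hold intensities per probe set, which come from RMA run by the authors, per the submitters' processing notes; its version and settings are not given in the sources used here. The range of the values places the intensities on a linear scale, and log2(intensity + 1) was tested. The pseudocount of 1 slightly understates changes of dim genes.

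The arrays carry 22277 probe sets. Left out were 62 controls, 568 probe sets naming more than 1 gene and 1923 naming no gene. The other probe sets gave 12165 genes, each by its brightest probe set, with no filter on dim genes. The symbols come from the platform annotation. Gene order comes from RefSeq (GRCh38.p14).

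A linear model with 8 group means was fitted (limma 3.58.1, R 4.3.3, 16 residual and 5.47 prior degrees of freedom) and tested on simulated data. P-values were adjusted by Benjamini-Hochberg over all genes, and genes with an adjusted p under 0.05 were called. Alternatives covered the normalization, dim genes, pseudocount, probe sets, samples in the fit, weights, prior, replicate numbers and each array left out. No 2 arrays were identical.

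The named genes are the listed granule genes, up to 4 genes of each further list with the smallest F-test p of the R406 effect over the 4 lines, and the 8 most alike by each measure. The neighbours of the granule genes, MYB, SPI1, RUNX1, CBFB and the C/EBP genes were named outside that rule, for position or role. The granule genes and all lists were chosen with earlier results of these data known.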

Additional observations from a re-analysis of the deposited data

Results flagged for a closer look

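The R406 effect differed between the 4 lines for each of the 8 granule genes, by the moderated F test over the lines with adjustment over all 12165 genes. The adjusted p was 9.06e-10 for MPO, 2.04e-11 for PRTN3, 2.65e-07 for ELANE and 7.45e-08 for CTSG. It was 8.15e-10 for AZU1, 7.84e-09 for MS4A3, 2.34e-09 for RNASE2 and 0.00275 for PRG2. From the lowest to the highest line the effects spanned 2.99, 3.89, 2.02, 2.15, 1.58, 2.41, 1.14 and 0.72 on the log2 scale, in the same order of genes. The test passed for 54.8% of all genes. Where a gene was not above background with DMSO in a line, a fall there could hardly be read. Groups of 3 arrays are too small for a test of single outlying arrays.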

How the results depend on the processing

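Of 320 granule gene changes recomputed under 10 other settings, 307 kept their side of the threshold, 2 were no longer called, 11 became called and 0 reversed. With each of the 24 arrays left out, the numbers were 754, 6, 8 and 0 of 768. A change was counted as reversed only where its sign switched and it passed in at least 1 of the 2 fits. Changes that passed in neither fit could switch sign, as MPO in U937 did with the mean of probe sets (-0.15 to 0.041). In U937, 1 gene (PRTN3) was called lower where the U937 arrays were fitted alone, against 0, and 1 rather than 2 was called higher with the replicate block, which removed AZU1 (adjusted p = 0.0988). With arrays left out, the number called higher in U937 was 1 to 2. The number called lower was 5 to 7 in MOLM-14 and 7 to 8 in HL-60, and the number called higher in KG-1 was 4 to 5. A check over all genes showed no pairing by replicate number. Correlations of same-numbered arrays were -0.084 to 0.071, and 6 of 12 DMSO arrays correlated best with their own number. This check cannot exclude a shared culture or day, on which the labels are silent. The replicate block added a call for CTSG in MOLM-14 (adjusted p = 0.0329). CTSG in MOLM-14 was also called with median centring (-0.39, adjusted p = 0.0370), and with a pseudocount of 16 (adjusted p = 0.0342), as was MPO in HL-60 (adjusted p = 0.00471). In KG-1, AZU1 was called without KG-1 R406 replicate 2 (0.31, adjusted p = 0.00613) and ELANE without KG-1 R406 replicate 3 (0.52, adjusted p = 0.00822). The cause of these shifts was not tested. Over all genes, U937 calls numbered 1099 lower and 1311 higher with array weights (660 and 742 without weights), and MOLM-14 calls 4612 and 5703 with every probe set tested (3039 and 3787). Leaving out U937 R406 replicate 1 gave 434 lower calls in U937, and leaving out its replicate 3 gave 428. Genes near the 90th percentile of other-tissue genes have no reliable level.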
